A study of Homo sapiens with 6 samples.

Results

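The transcriptome of HCC827 cells after 48 h with AL-X was set against that of HCC827 cells after 48 h with DMSO, its solvent. The labels use the code name AL-X for 9α,11α-dihydroxy-kaurenoic acid, a kaurane diterpenoid, given at 10 µg/mL. HCC827 is a lung adenocarcinoma line that carries an activating deletion in EGFR and depends on that receptor for growth. Of the 60671 genes in the count table, 11938 had at least 5 CPM (counts per 1e6 scaled counts) in the higher of the 2 HCC827 libraries, and these are the genes described. The same compound, dose and time were applied to A549 and H1975, also lung adenocarcinoma lines, with 1 AL-X and 1 DMSO library each. Those 4 libraries enter only where the HCC827 response is set beside that of the other lines.

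Several pathways described here have well-known wiring. NRF2 is a transcription factor that KEAP1 normally sends for degradation. When electrophiles modify KEAP1, NRF2 accumulates and activates genes for glutathione, NADPH and detoxification, while heme releases the repressor BACH1 from many of the same promoters. The integrated stress response works through ATF4 and DDIT3. NF-kB factors drive neutrophil-attracting chemokines, and EGFR signals through ERK to genes such as DUSP6, ETV4 and SPRY1. In lung adenocarcinoma cells the factor NKX2-1 keeps surfactant and secretory genes on. Mitochondrial genes are transcribed as long polycistronic RNAs by a dedicated polymerase, POLRMT.

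The AL-X library held 98139178 counts and the DMSO library 126840915, and 26694 and 27874 genes had at least 1 count. There was 1 library a side, so no fold within HCC827 has a replicate check and no p-value is given for it. Each fold is a log2 ratio of scaled CPM, AL-X over DMSO. Its 95% interval is exact binomial and covers counting error only. The median distance from a fold to the edge of its interval was 0.0652 log2 units. Differences between 2 cultures treated alike could not be measured. The epithelial markers were present in both libraries: EPCAM had 189.7 CPM with AL-X and 291 CPM with DMSO, KRT18 363 CPM with AL-X and 661 CPM with DMSO, and CDH1, the gene for E-cadherin, 606 CPM with AL-X and 405 CPM with DMSO. EGFR itself had 2210.4 CPM with AL-X and 3652 CPM with DMSO. Summed over 8 fibroblast markers the level was 8.57 CPM with AL-X and 20.9 CPM with DMSO, and over 6 endothelial markers 4.05 and 6.04 CPM. The leukocyte-defining genes PTPRC, CD3E, MS4A1 and NKG7 had 0 counts in both libraries. The 9 leukocyte markers summed to 373.1 CPM with AL-X and 70.2 CPM with DMSO through CD68, a lysosomal membrane protein, alone at 371 against 69.7 CPM.

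With AL-X, 1275 genes (10.7%) were at least 2-fold higher than with DMSO, 2067 (17.3%) were at least 2-fold lower, and 8596 lay between. Counts of higher and lower members in the gene lists below are to be read against these shares, to which several lists are close. The median log2 fold was -0.045, and the 10th and 90th percentiles were -1.47 and 1.04. Large differences were more often downward: 262 genes were lower by at least 3 log2 units and 83 higher, and 65 genes were lower by at least 5 units and 17 higher. Scaling by library totals alone moved the median by 0.13 and gave 1701 genes higher and 1870 lower, so that 47.6% of the genes past 2-fold were higher, against 38.2% with the scaling used. The scaling factors with AL-X and DMSO were 1.273 and 1.165 in HCC827, 0.5567 and 1.118 in A549, and 0.903 and 1.199 in H1975. Against library totals, this scaling raises every A549 and H1975 fold given below, most in A549. Protein-coding genes made up 11049 of the genes, with 9.81% higher and 17.2% lower. Of 180 antisense transcripts 32.8% were higher and 18.3% lower, and of 167 long intergenic RNAs 26.9% and 26.3%. In such bulk RNA, fewer cells of a kind and less RNA per cell cannot be told apart.

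**Figure D1:**
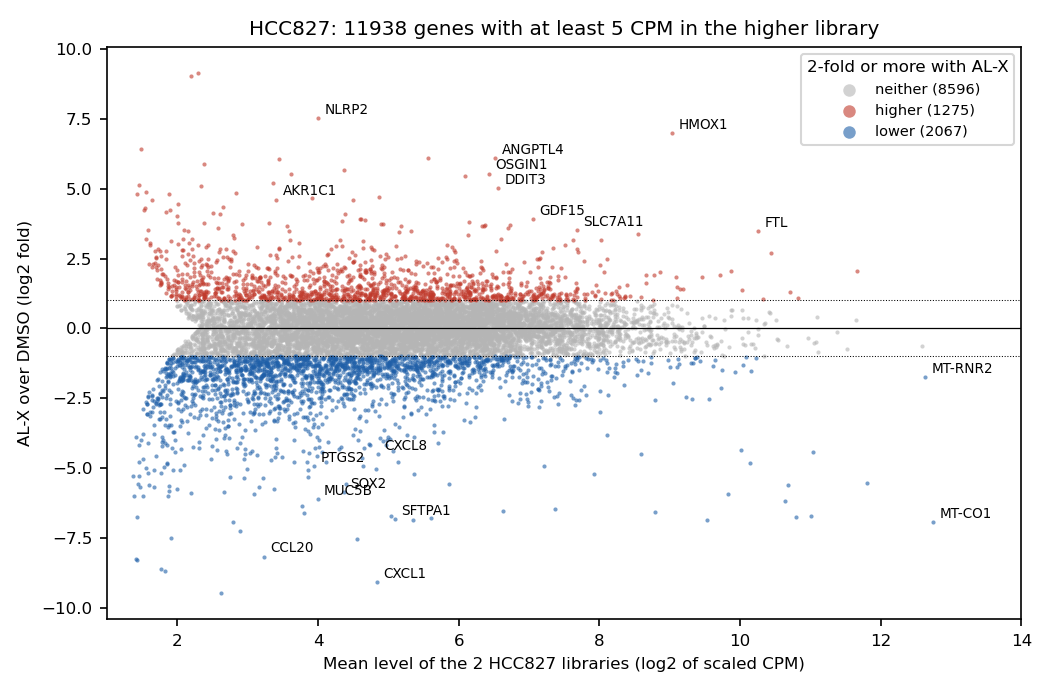
Log2 fold of AL-X over DMSO (y axis) against the log2 of the mean scaled CPM of the AL-X and DMSO libraries (x axis) for 11938 genes of HCC827; each point is a gene, and the dotted lines mark 2-fold. Red points are the 1275 genes at least 2-fold higher with AL-X, with HMOX1 at 6.99, and blue points the 2067 at least 2-fold lower, with CXCL1 at -9.07.

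Among named genes that reached 10 CPM, NLRP2 showed the highest fold. This inflammasome-family gene (ENSG00000022556, chromosome 19, 54953130 to 55001142) had 3971 counts with AL-X and 23 with DMSO, a log2 fold of 7.52 (95% counting interval 7.08 to 8.33). HMOX1 (ENSG00000100292, chromosome 22, 35380361 to 35394214), the enzyme that opens the heme ring, followed with 1043 CPM with AL-X and 8.17 CPM with DMSO (log2 fold 6.99, 6.92 to 7.08). ANGPTL4 (ENSG00000167772, chromosome 19, 8363289 to 8374373), a secreted inhibitor of lipoprotein lipase, had 181 CPM with AL-X and 2.64 CPM with DMSO (log2 fold 6.09, 5.95 to 6.25). Each of these 3 genes was low in the DMSO library. The transcription factor gene SP6 (5.88), the tetraspanin-like TM4SF19 (5.51) and the oxidative stress-induced OSGIN1 (5.54) were also among the highest folds. Of genes with no count in the DMSO library, the antisense transcript ENSG00000229224 had 1224 counts with AL-X, at least 482-fold higher when 3 counts are taken as the floor of the DMSO library.

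At the other end stood secreted signals of inflammation and the mitochondrial messages. CXCL1 (ENSG00000163739, chromosome 4, 73869393 to 73871242), a neutrophil chemokine, had 11 counts with AL-X and 8386 with DMSO (log2 fold -9.07, -10.34 to -8.49). CCL20, a chemokine for CCR6-bearing lymphocytes, had 6 counts with AL-X and 2762 with DMSO (log2 fold -8.16), and CXCL6 10 counts with AL-X and 2175 with DMSO (-7.24). The surfactant protein gene SFTPA1 (ENSG00000122852, chromosome 10, 79610939 to 79615455) had 0.577 CPM with AL-X and 67.6 CPM with DMSO (log2 fold -6.83, -7.23 to -6.54), and FAM20A, a pseudokinase of the secretory pathway, 0.689 CPM with AL-X and 81.2 CPM with DMSO (-6.84). MT-CO1, the mitochondrially encoded core subunit of cytochrome c oxidase, had 111 CPM with AL-X and 13598 CPM with DMSO (log2 fold -6.93, -6.96 to -6.91). Among genes with 0 counts in the AL-X library, ENSG00000285991 had 1820 counts with DMSO, at least 514-fold lower.

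NRF2 target genes were on the higher side. Of 27 listed members with enough counts, 17 were at least 2-fold higher with AL-X and none was 2-fold lower, and their median log2 fold was 1.59. The oxidoreductase gene AKR1C1 had 20.4 CPM with AL-X and 0.821 CPM with DMSO (log2 fold 4.61); its reads may be shared with near-identical AKR1C genes. SLC7A11, the cystine transporter that feeds glutathione synthesis, had 378 CPM with AL-X and 32.9 CPM with DMSO (3.52). GCLM, the regulatory subunit of the first enzyme of that synthesis, had 683 CPM with AL-X and 65.0 CPM with DMSO (3.39), and the catalytic subunit GCLC 192 CPM with AL-X and 86.0 CPM with DMSO (1.16). SQSTM1, a selective autophagy receptor that binds KEAP1, had 2418 CPM with AL-X and 370.3 CPM with DMSO (2.71), and the quinone reductase NQO1 191 CPM with AL-X and 60.7 CPM with DMSO (1.66). Genes of NADPH production and the pentose phosphate pathway were within 2-fold: PGD had a log2 fold of -0.018, ME1 0.59, TALDO1 0.087 and TKT -0.58. Of the regulators, NFE2L2, the gene for NRF2 itself, had a log2 fold of 0.49, KEAP1 1.81 and BACH1 1.44. The small MAF partners had 2.98 for MAFF, 2.15 for MAFK and 2.09 for MAFG.

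The promoters of NRF2 targets were searched in RefSeq windows of build GRCh38.p14 that run from 250 bases before to 50 after a gene's start. The core letters of the antioxidant response element, TGACNNNGC on either strand, were in 6 of 20 listed genes whose window was found, against 15.3% of the 9360 windows of all genes described. Of the 11 higher genes with a window 2 held them. GCLM is shown as the member with a large fold that holds these letters upstream of its start, at chr1:93909431-93909490 (minus strand), with the match in capitals.
GCLM: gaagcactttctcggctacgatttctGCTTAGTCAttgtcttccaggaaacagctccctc
A match is a string of letters and not a measured binding site.

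Heme and iron genes went both ways. Alongside HMOX1, both ferritin chains that store the freed iron were higher: FTL had 2248 CPM with AL-X and 202 CPM with DMSO (log2 fold 3.48) and FTH1 5208 CPM with AL-X and 1269 CPM with DMSO (2.04). HMOX1, FTL and FTH1 together took 1.081% of all counts with AL-X and 0.172% with DMSO. The biliverdin reductases differed in direction: BLVRB had 43.0 CPM with AL-X and 10.9 CPM with DMSO (1.97), while BLVRA had a log2 fold of -1.44. An iron importer and an iron exporter were also lower: TFRC had 165 CPM with AL-X and 389 CPM with DMSO (-1.24) and the exporter gene SLC40A1 0.248 CPM with AL-X and 6.25 CPM with DMSO (-4.56). Of the 27 genes of the list, 6 were 2-fold higher and 6 were 2-fold lower, with a median of 0.052. Among 24 glutathione genes 6 were higher and 4 lower. CHAC1, which degrades glutathione, had a log2 fold of 1.94. GGCT, a gamma-glutamyl cyclotransferase, had -1.73.

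Integrated stress response genes were higher in 19 of 38 cases and lower in 2, with a median of 1.00. DDIT3 (ENSG00000175197, chromosome 12, 57516588 to 57521737), which encodes the factor CHOP, had 183 CPM with AL-X and 5.59 CPM with DMSO (log2 fold 5.03, 4.93 to 5.13). The stress cytokine GDF15 had 249 CPM with AL-X and 16.5 CPM with DMSO (3.91), ATF3 174 CPM with AL-X and 19.2 CPM with DMSO (3.18), and TRIB3, a pseudokinase induced by this pathway, 131 CPM with AL-X and 28.9 CPM with DMSO (2.18). The message of the pathway's own factor was not higher: ATF4 had 136 CPM with AL-X and 176 CPM with DMSO, a log2 fold of -0.37. Amino acid genes ranged from the transporter SLC7A5 (1.84) and asparagine synthetase ASNS (1.33) to SHMT2 (-0.56), tryptophanyl-tRNA synthetase WARS1 (-1.25) and cystathionine beta-synthase CBS (-2.61). The letters TGATGNAA of the C/EBP-ATF element were in 6 of 34 of their promoter windows and in 4 of the 18 of higher genes, against 1.53% of those of all genes described.

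Protein-folding genes showed a smaller and divided response. In the endoplasmic reticulum list 7 of 25 genes were higher and 1 lower, led by the stress sensor ERN1 with 105 CPM with AL-X and 19.1 CPM with DMSO (2.46); the chaperone HSPA5 had 1509 CPM with AL-X and 578 CPM with DMSO (1.38). Heat shock genes were higher in 4 of 21 cases (19.0%) and lower in 5 (23.8%), against 10.7% and 17.3% of all genes described. HSPB8, a small heat shock protein that works with autophagy, had a log2 fold of 2.49 and HSPA1A 1.07, while HSP90AB1 had -1.29 and HSPA4L -2.78. HSPA1A and HSPA1B are near-identical, so their counts are uncertain. In the other lines the same 21 genes had medians of 2.67 in A549 and 1.88 in H1975, against 0.12 in HCC827. HSPA1A alone had log2 folds of 6.42 in A549 and 4.46 in H1975.

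Of 21 genes of the RB pathway and inhibitors of cyclin-dependent kinases (CDK), 3 were higher and 5 lower, with a median of -0.64. Their shares were 14.3% and 23.8%, against 10.7% and 17.3% of all genes described. The higher ones were all CDK inhibitors, CDKN1A, CDKN2B and CDKN2D (1.39). CDKN1A, which encodes the CDK inhibitor p21, had 149 CPM with AL-X and 11.6 CPM with DMSO (3.68, 3.61 to 3.75). CDKN2B, which encodes the CDK4 and CDK6 inhibitor p15, had 197 CPM with AL-X and 14.97 CPM with DMSO (3.72, 3.65 to 3.78). The named apoptosis genes went both ways. BBC3, a pro-apoptotic BH3-only gene, had a log2 fold of 1.45, and BAX, which permeabilizes the outer mitochondrial membrane, 0.77. BCL2L11, the BH3-only gene that mediates death after EGFR inhibition, had 60.3 CPM with AL-X and 44.0 CPM with DMSO (0.46). BMF, another BH3-only gene, had -2.78, the caspase-8 inhibitor CFLAR -1.34, and TNFRSF10D, a decoy receptor for TRAIL, 2.56.

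**Figure D2:**
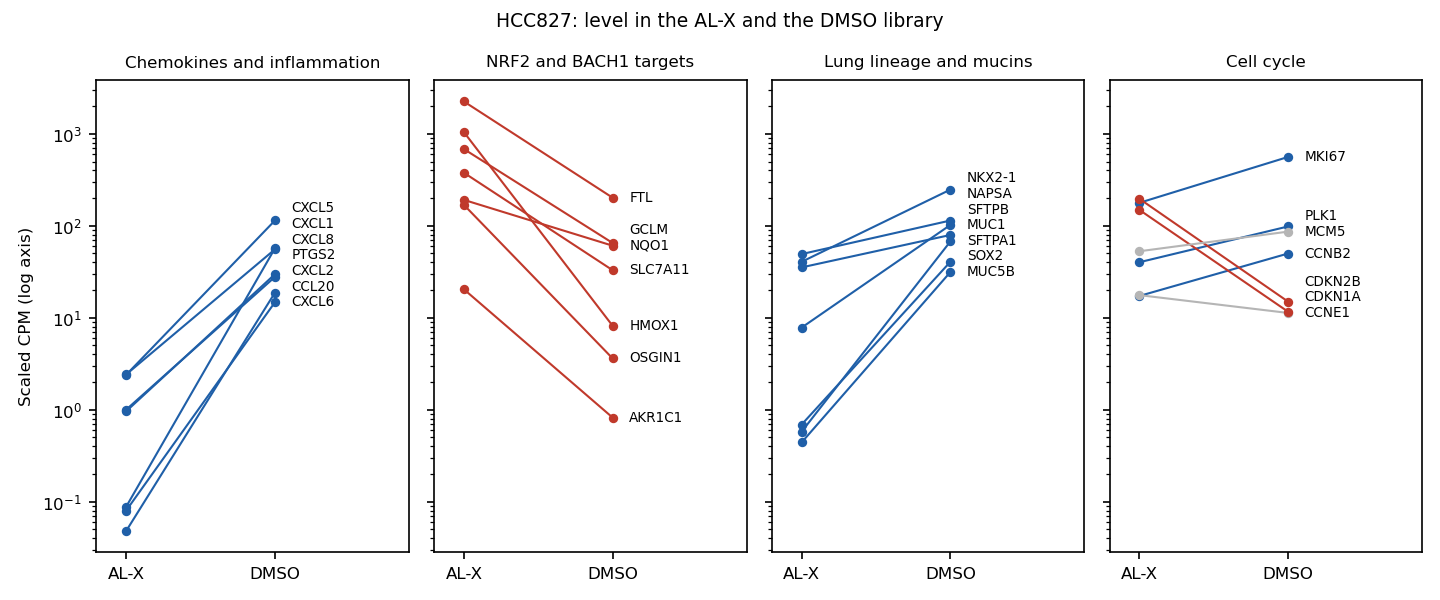
Scaled CPM on a log axis (y) in the AL-X library and the DMSO library of HCC827 for genes of 4 groups; each line joins the 2 values of a gene, red where AL-X was at least 2-fold higher, blue where it was at least 2-fold lower, grey otherwise. CXCL1 had 0.0881 CPM with AL-X and 56.9 CPM with DMSO, and HMOX1 1043 and 8.17 CPM.

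Chemokine genes were lower and had the lowest median of the nuclear gene lists. Of 9 members 7 were at least 2-fold lower with AL-X and none was higher, with a median of -4.77. Besides CXCL1, CCL20 and CXCL6, the neutrophil chemokine CXCL5 had 2.40 CPM with AL-X and 114 CPM with DMSO (log2 fold -5.57, -5.75 to -5.41). CXCL8 (ENSG00000169429, chromosome 4, 73740506 to 73743716), which encodes interleukin 8, had 2.42 CPM with AL-X and 55.5 CPM with DMSO (-4.51, -4.69 to -4.35), CXCL2 1.00 CPM with AL-X and 27.8 CPM with DMSO (-4.77) and the membrane-bound CX3CL1 3.49 CPM with AL-X and 56.9 CPM with DMSO (-4.02). CXCL16 (0.33) and CCL28 (0.32) stayed within 2-fold. CXCL1 and CXCL2 are close in sequence, as are CXCL5 and CXCL6, so reads could be split between them.

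The 6 neutrophil and lymphocyte chemokines that were lower hold kB letters, GGNNTTTCC on either strand, close to their starts. This string was in all 6 of the lower chemokines whose RefSeq window was found, against 6.82% of the windows of all genes described, and it is printed in capitals within bases 110 to 36 before the start. The stretches lie at chr4:73869283-73869357 (plus strand) for CXCL1, chr4:74099231-74099305 (minus strand) for CXCL2, chr4:73998713-73998787 (minus strand) for CXCL5, chr4:73836568-73836642 (plus strand) for CXCL6, chr4:73740459-73740533 (plus strand) for CXCL8 and chr2:227813732-227813806 (plus strand) for CCL20.
CXCL1: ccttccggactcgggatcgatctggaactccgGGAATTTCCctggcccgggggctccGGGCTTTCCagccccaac
CXCL2: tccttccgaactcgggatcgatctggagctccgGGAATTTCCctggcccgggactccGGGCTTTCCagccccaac
CXCL5: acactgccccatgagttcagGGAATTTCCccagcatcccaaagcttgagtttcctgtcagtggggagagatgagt
CXCL6: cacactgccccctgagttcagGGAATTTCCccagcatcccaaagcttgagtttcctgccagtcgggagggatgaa
CXCL8: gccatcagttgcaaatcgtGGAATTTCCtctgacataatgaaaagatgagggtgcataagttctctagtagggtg
CCL20: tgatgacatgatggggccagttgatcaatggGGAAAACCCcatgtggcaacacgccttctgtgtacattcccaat
CXCL1 and CXCL2 each hold 2 copies, the others 1. All but CCL20 lie in a cluster on chromosome 4 and share ancestry, so they are not independent of each other.

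Other NF-kB genes went both ways. Of 29 subunits, regulators and targets, 9 were higher and 14 lower, with a median of -0.96. Among the subunits, log2 folds were 1.05 for RELA, 1.42 for RELB and -1.09 for NFKB1, the only subunit at least 2-fold lower. Inhibitors and feedback regulators of NF-kB went both ways. NFKBIE (1.59), NFKBIB (1.31) and TNIP2 (1.36) were higher. NFKBIA had 30.9 CPM with AL-X and 186 CPM with DMSO (-2.59) and TNFAIP3 28.0 CPM with AL-X and 80.4 CPM with DMSO (-1.52), both lower. Acute-phase genes were lower too, SAA2 with 0.200 CPM with AL-X and 12.4 CPM with DMSO (-5.84) and SAA1 with 0.457 CPM with AL-X and 8.89 CPM with DMSO (-4.23), though the pair is near-identical in sequence. ICAM1, an adhesion molecule, stayed at 453 against 389 CPM with AL-X and DMSO (0.22). In this list 10 of 21 windows held the kB letters, among them none of the 6 higher genes with a window and 6 of the 10 lower genes.

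Cytokine and prostaglandin genes went both ways. Of 16 genes of the interleukin 1 family, inflammasomes and prostaglandins 4 were higher and 3 lower (median 0.19), and of 21 of the interleukin 6 family and its signalling genes 4 were higher and 5 lower (median 0.29). PTGS2, the inducible cyclooxygenase, had 0.961 CPM with AL-X and 29.8 CPM with DMSO (log2 fold -4.93), and HPGD, the enzyme that inactivates prostaglandins, 1.67 CPM with AL-X and 54.9 CPM with DMSO (-5.02). The genes for making and for clearing prostaglandin E2 were both lower. IL1B had -3.12 and IL6 -4.17, and of the feedback inhibitors of cytokine receptors SOCS3 had -3.23 and SOCS2 -3.58. Higher were IL11 (2.92), the interleukin 6 receptor IL6R (2.74) and SOCS1 (2.16).

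Interferon-stimulated genes were lower in 16 of 35 cases and higher in 2, with a median of -0.94. IFI44L had 1.55 CPM with AL-X and 48.1 CPM with DMSO (-4.94), the antiviral GTPase MX2 0.705 CPM with AL-X and 16.8 CPM with DMSO (-4.54), XAF1 0.905 CPM with AL-X and 20.4 CPM with DMSO (-4.47) and the tetherin gene BST2 0.473 CPM with AL-X and 9.42 CPM with DMSO (-4.27). STAT2 (0.44), a factor that drives these genes, ISG15 (0.82) and IRF7 (1.53) were not lower. Of antigen presentation genes 4 of 18 (22.2%) were lower and 1 higher, against 17.3% and 10.7% of all genes described. The immunoproteasome subunits PSMB9 (-2.43) and PSMB8 (-1.77) were among the lower. HLA-E, a ligand of NK-cell receptors, was higher (1.55). The letters GAAANNGAA of the interferon-stimulated response element were in 20 of 29 listed genes with a window, against 6.32% of all. They were in 11 of the 13 lower genes and in the 1 higher gene. The matches of BST2, at chr19:17405711-17405770 (minus strand), and IFI44L, at chr1:78620358-78620417 (plus strand), are shown, BST2 with its 2 overlapping matches and IFI44L with the nearer of its 2.
BST2: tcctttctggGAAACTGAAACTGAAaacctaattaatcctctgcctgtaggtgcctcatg
IFI44L: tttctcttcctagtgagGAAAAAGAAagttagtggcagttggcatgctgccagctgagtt

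Proliferation genes were lower or within 2-fold. Of 48 replication and E2F targets 31 were at least 2-fold lower, 17 within 2-fold and none higher (median -1.20), and of 46 G2/M and spindle genes 27 were lower, 19 within 2-fold and none higher (median -1.28). MKI67, the proliferation antigen, had 178 CPM with AL-X and 561 CPM with DMSO (log2 fold -1.66, -1.68 to -1.64). TOP2A, which untangles sister DNA, had 129.8 CPM with AL-X and 758 CPM with DMSO (-2.55), the mitotic kinase CDK1 10.9 CPM with AL-X and 56.1 CPM with DMSO (-2.36), and ASPM, a spindle-pole protein, 32.5 CPM with AL-X and 221 CPM with DMSO (-2.77). The E2F activator E2F2 had 1.29 CPM with AL-X and 9.88 CPM with DMSO (-2.92), and GINS1, part of the replicative helicase, 5.51 CPM with AL-X and 33.3 CPM with DMSO (-2.59). The G1/S cyclin CCNE1 lay outside this pattern with 17.6 CPM with AL-X and 11.3 CPM with DMSO (0.64), as did CDC20 (-0.31), BIRC5 (-0.31) and HMMR (0.062). CCND1, the D-type cyclin downstream of EGFR, had 178 CPM with AL-X and 319 CPM with DMSO (-0.84). In the other lines the G2/M median was 0.45 in A549 and -0.10 in H1975, over the same genes.

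G2/M promoters are known for CCAAT boxes and the cell cycle homology region TTTGAA near the start. TTTGAA on either strand was in 28 of 39 windows of the list and in 20 of the 24 of lower genes, against 9.9% of all windows. CCAAT was in 31 of 39 and in 18 of the 24 of lower genes, against 37.0% of all, so it was not more frequent in the lower genes than in the list. The last 90 bases before the start are printed for 4 lower genes, with both strings in capitals: CCNB2 (-1.53) at chr15:59105056-59105145 (plus strand), PLK1 (-1.29) at chr16:23678799-23678888 (plus strand), BUB1B (-1.90) at chr15:40160979-40161068 (plus strand) and MKI67 at chr10:128126424-128126513 (minus strand).
CCNB2: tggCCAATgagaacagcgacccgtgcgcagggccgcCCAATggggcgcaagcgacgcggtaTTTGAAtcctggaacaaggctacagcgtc
PLK1: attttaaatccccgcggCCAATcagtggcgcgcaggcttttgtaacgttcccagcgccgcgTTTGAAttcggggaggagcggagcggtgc
BUB1B: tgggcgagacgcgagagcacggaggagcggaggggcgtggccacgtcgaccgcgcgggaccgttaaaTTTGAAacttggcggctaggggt
MKI67: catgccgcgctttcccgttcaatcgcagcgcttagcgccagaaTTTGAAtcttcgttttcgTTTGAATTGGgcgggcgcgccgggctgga
In MKI67 the second TTTGAA and the CCAAT box read on the other strand overlap by a letter. BUB1B has TTTGAA without a CCAAT box in this stretch.

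The replication-dependent histone genes with enough counts did not follow the other S-phase genes. Of 54 matched to the table, 12 had enough counts, 8 of these were higher and none lower, and the median was 1.80. At least H2BC15, H3C6, H2BC4 and H4C8 among the higher ones, and H2AC11 among those within 2-fold, reached 5 CPM only in the AL-X library. The minimum level thus selected for higher folds, and the split of the 12 does not describe the 54. H2BC15 had 10.8 CPM with AL-X and 1.84 CPM with DMSO (2.54), H3C6 7.72 CPM with AL-X and 1.19 CPM with DMSO (2.68) and H2BC4 12.9 CPM with AL-X and 3.11 CPM with DMSO (2.05). These messages normally end in a stem-loop without a poly(A) tail, and the libraries were made with an mRNA kit. How much of each level stems from tailed transcripts was not tested.

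Genes of the EGFR and ERK axis were divided between receptors, ligands and feedback genes. The receptor genes had log2 folds of -0.72 for EGFR, -0.96 for ERBB2, -1.08 for ERBB3 and -0.57 for MET. Of the ligands, HBEGF had 47.7 CPM with AL-X and 3.26 CPM with DMSO (3.87) and TGFA 14.7 CPM with AL-X and 5.95 CPM with DMSO (1.30), whereas EREG had 19.1 CPM with AL-X and 133 CPM with DMSO (-2.80) and BTC 4.78 CPM with AL-X and 15.7 CPM with DMSO (-1.71). Classical ERK-induced genes were lower in part: ETV4 had 2.80 CPM with AL-X and 25.4 CPM with DMSO (-3.17), ETV1 2.25 CPM with AL-X and 14.7 CPM with DMSO (-2.70), DUSP6, the cytosolic ERK phosphatase, 43.2 CPM with AL-X and 134 CPM with DMSO (-1.63), and SPRY1 4.25 CPM with AL-X and 15.9 CPM with DMSO (-1.90). Others were higher, DUSP5, a nuclear ERK phosphatase, with 192 CPM with AL-X and 15.7 CPM with DMSO (3.61), DUSP1 with 61.4 CPM with AL-X and 7.85 CPM with DMSO (2.97) and the ephrin receptor EPHA2 with 362 CPM with AL-X and 49.98 CPM with DMSO (2.86). Over the 25 genes of this list 9 were higher and 6 lower, with a median of 0.33. MYC stayed near its control at 283 against 336 CPM with AL-X and DMSO (-0.25).

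Of 18 AP-1 and immediate-early genes 10 were higher and 1 lower, with a median of 1.05. FOSB had 12.7 CPM with AL-X and 1.32 CPM with DMSO (3.24) and FOS 17.9 CPM with AL-X and 4.82 CPM with DMSO (1.89), while EGR1 had 40.4 CPM with AL-X and 38.9 CPM with DMSO (0.052). BATF3, which pairs with JUN, was lower (-3.07). YAP and TEAD targets were mostly within 2-fold, with 4 of 21 higher. CCN2, a matricellular protein, had 39.4 CPM with AL-X and 2.31 CPM with DMSO (4.08), and the kinase LATS2, which restrains YAP, 1.88.

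Lung lineage genes were lower in 13 of 17 cases and higher in 2, with a median of -1.46. The lineage factor NKX2-1 had 40.6 CPM with AL-X and 247 CPM with DMSO (log2 fold -2.61, -2.65 to -2.57). Surfactant genes were lower by more: SFTPA2 had 2.79 CPM with AL-X and 50.8 CPM with DMSO (-4.18) and SFTPB 7.81 CPM with AL-X and 102 CPM with DMSO (-3.71). SFTPA1 and SFTPA2 are near copies, and their counts are uncertain against each other. HOPX, an alveolar homeobox gene, had 0.369 CPM with AL-X and 6.87 CPM with DMSO (-4.16). NAPSA, the aspartic protease of type II cells, had 49.2 CPM with AL-X and 114 CPM with DMSO (-1.21). The BMP-induced ID2 (1.97) and GATA6 (1.46) were higher.

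Mucin and secretory genes were lower in 8 of 9 cases. MUC5B, a gel-forming airway mucin, had 0.441 CPM with AL-X and 31.4 CPM with DMSO (-6.10), and the membrane mucins MUC16 222 CPM with AL-X and 1293 CPM with DMSO (-2.54) and MUC4 77.2 CPM with AL-X and 352 CPM with DMSO (-2.19). Their goblet-cell factor SPDEF had 0.393 CPM with AL-X and 6.57 CPM with DMSO (-4.01). The single member not lower by 2-fold was MUC20, at 0.86. Of the same 9 genes 5 were at least 2-fold lower in A549 and 6 in H1975, and none was higher there. They had medians of -2.50 in HCC827, -2.35 in A549 and -2.08 in H1975.

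General epithelial genes were held more closely than the lung lineage genes and mucins. Of 21 members 4 (19.0%) were lower, against 17.3% of all genes described. None was higher, and the median was -0.46. The splicing regulator ESRP1 had 111 CPM with AL-X and 244 CPM with DMSO (-1.14). Of 19 junction genes 5 were lower, with the gap junction gene GJA1 the lowest (5.13 against 72.0 CPM; -3.81). KRT4, a keratin of wet squamous epithelium, had 1.91 CPM with AL-X and 47.4 CPM with DMSO (-4.62), and SFN, a 14-3-3 protein of epithelia, 159 CPM with AL-X and 39.0 CPM with DMSO (2.02). Among mesenchymal genes the repressor SNAI1 had 55.3 CPM with AL-X and 4.16 CPM with DMSO (3.72) and the fibronectin receptor chain ITGA5 468 CPM with AL-X and 84.0 CPM with DMSO (2.48), while TGFB2 (-2.51) and SPARC (-2.22) were lower and VIM was level (-0.13).

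Mitochondrially encoded messages were lower in all 13 cases, with a median of -5.91 and folds between -4.33 for MT-ND1 and -6.93 for MT-CO1. The ATP synthase genes MT-ATP6 (32.7 against 3507 CPM with AL-X and DMSO; -6.74) and MT-ATP8 (-6.86) and the oxidase subunit MT-CO3 (-6.70) were near the low end, and the complex I subunits MT-ND1, MT-ND2 (-4.81) and MT-ND5 (-4.41) near the other. MT-ND6, the one message read from the light strand, had 9.47 CPM with AL-X and 288 CPM with DMSO (-4.92). The ribosomal RNAs differed from the messages: MT-RNR1 had 1366 CPM with AL-X and 1224 CPM with DMSO (0.16) and MT-RNR2 2920.1 CPM with AL-X and 9769 CPM with DMSO (-1.74). Both lie next to the heavy-strand promoters. All 13 messages together took 0.109% of counts with AL-X and 5.39% with DMSO, and both ribosomal RNAs 0.545% and 1.28%, so the rRNAs took the larger share only in the AL-X library. Nuclear copies of mitochondrial DNA can share these reads.

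**Figure D3:**
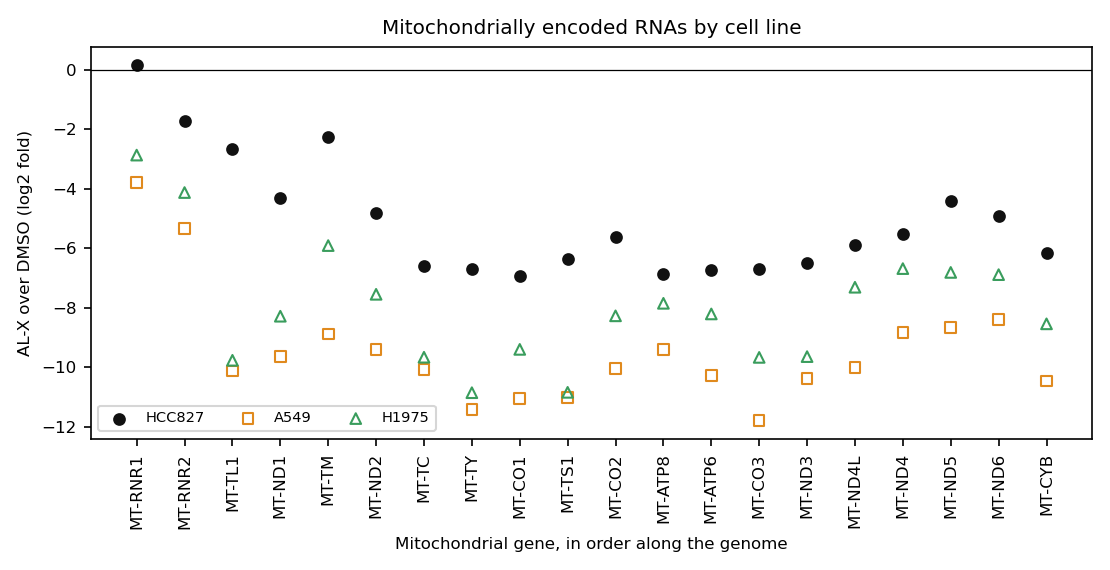
Log2 fold of AL-X over DMSO (y axis) for mitochondrially encoded RNAs with at least 5 CPM in the higher HCC827 library, in their order along the mitochondrial genome (x axis), in HCC827 (filled circles), A549 (open squares) and H1975 (open triangles). HCC827 lies above the other lines at every gene, from 0.16 at MT-RNR1 to -6.93 at MT-CO1.

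Nuclear genes for the organelle mostly stayed within 2-fold. Of 39 nuclear subunits of the respiratory chain 5 were lower and none higher (median -0.19); ATP5MC3 had 22.2 CPM with AL-X and 58.2 CPM with DMSO (-1.39). Of 31 factors for mitochondrial transcription and RNA handling 1 was higher and 5 were lower. POLRMT had 48.8 CPM with AL-X and 45.4 CPM with DMSO (0.11) and TFAM, which packages the genome and activates its promoters, 39.0 CPM with AL-X and 74.5 CPM with DMSO (-0.93). TOP1MT, the mitochondrial topoisomerase, was lowest at -1.93, and POLG, the DNA polymerase, highest at 1.08. The chaperonin pair had 286 CPM with AL-X and 743 CPM with DMSO for HSPD1 (-1.38) and 22.2 CPM with AL-X and 73.2 CPM with DMSO for HSPE1 (-1.72). These genes share a promoter. In A549 the pair had log2 folds of 1.92 and 1.78, and in H1975 1.14 and 0.96.

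Autophagy and lysosome genes were higher or, in the larger number, within 2-fold. Of 33 autophagy genes 14 were higher and none lower (median 0.85), and of 35 lysosome and V-ATPase genes 14 were higher and 2 lower (median 0.82). MAP1LC3B, which coats the autophagosome, had 326 CPM with AL-X and 40.7 CPM with DMSO (3.00). The cysteine protease CTSL had 354 CPM with AL-X and 39.8 CPM with DMSO (3.16), the lysosomal calcium channel MCOLN1 107 CPM with AL-X and 15.1 CPM with DMSO (2.82) and the cholesterol exporter NPC1 309 CPM with AL-X and 99.5 CPM with DMSO (1.64). CTSS (-1.87) and CTSH (-1.07) were lower. The letters TCACGTGA, bound by TFEB and TFE3, were in 6 of 22 lysosome windows and in 2 of the 11 of higher genes, against 2.0% of all. MCOLN1 is shown because it holds them as a pair, at chr19:7522564-7522623 (plus strand).
MCOLN1: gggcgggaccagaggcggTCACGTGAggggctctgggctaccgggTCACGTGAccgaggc

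Lipid and sugar genes differed by branch. Of 21 PPAR target and lipid droplet genes, ANGPTL4 among them, 3 were higher, 3 lower and 15 within 2-fold. The lipid droplet protein PLIN2 had 264 CPM with AL-X and 57.2 CPM with DMSO (2.21). The pyruvate dehydrogenase kinase PDK4 had 1.42 CPM with AL-X and 7.95 CPM with DMSO (-2.47). PPARA (0.18), PPARD (0.74) and PPARG (0.63) stayed within 2-fold. Of 22 fatty acid synthesis genes 7 were lower and 1 higher. SREBF1, their main factor, had 85.8 CPM with AL-X and 354 CPM with DMSO (-2.04), the desaturase SCD 592 CPM with AL-X and 1684 CPM with DMSO (-1.51) and fatty acid synthase FASN 446 CPM with AL-X and 899.6 CPM with DMSO (-1.01). Of 28 sterol genes 8 were lower and none higher. Glycolysis and hypoxia genes were higher in 11 of 34 cases and lower in 3. ADM, a hypoxia-induced vasodilator, had 152 CPM with AL-X and 11.8 CPM with DMSO (3.68), the prolyl hydroxylase P4HA1 239 CPM with AL-X and 42.9 CPM with DMSO (2.47) and the glucose transporter SLC2A1 747 CPM with AL-X and 186 CPM with DMSO (2.00). Another glucose transporter, SLC2A3, had 1.48 CPM with AL-X and 15.04 CPM with DMSO (-3.33), and TXNIP, which curbs glucose uptake, 16.6 CPM with AL-X and 87.7 CPM with DMSO (-2.40).

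Housekeeping genes mostly stayed within 2-fold. All 33 proteasome genes stayed within 2-fold, with a median of 0.26. Of 75 cytosolic ribosomal protein genes 2 were lower and none higher, with a median of -0.50, RPS26 the lowest at -1.35. The same ribosomal genes had medians of 1.98 in A549 and 1.31 in H1975, and the proteasome genes 1.81 and 1.17. Part of these A549 and H1975 values comes from the scaling used, which raises them against library totals. Of 11 tubulin genes TUBB2A had the highest fold (2.11) and TUBA1A the lowest (-1.36). Of 13 checkpoint genes and ligands of the natural killer receptor NKG2D 3 were higher and 4 lower. The NKG2D ligands had 26.5 CPM with AL-X and 5.95 CPM with DMSO for ULBP1 (2.15) and 40.9 CPM with AL-X and 10.2 CPM with DMSO for MICA (2.01), and log2 folds of 0.96 for MICB and 0.57 for ULBP3. CD47, which signals against phagocytosis, had 31.2 CPM with AL-X and 126.9 CPM with DMSO (-2.02) and CD274, which encodes PD-L1, a log2 fold of 0.66.

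**Figure D4:**
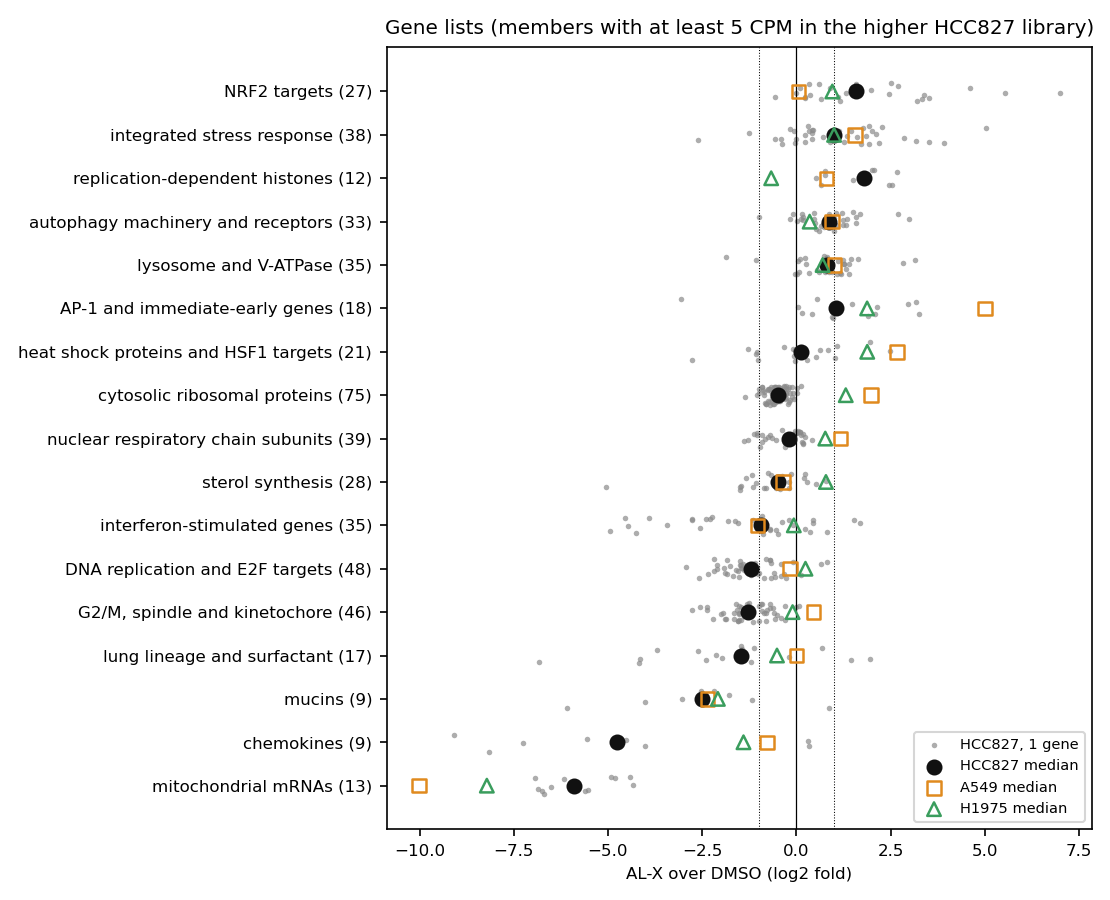
Log2 fold of AL-X over DMSO (x axis) for 17 gene lists, with the number of genes in brackets; small grey points are single genes in HCC827, and the large symbols are list medians over those genes in HCC827 (filled circles), A549 (open squares) and H1975 (open triangles). The HCC827 median is highest for replication-dependent histones at 1.80 and lowest for mitochondrial mRNAs at -5.91. Of these histones, at least H2BC15, H3C6, H2BC4, H4C8 and H2AC11 reached 5 CPM only with AL-X. Against library totals, the scaling used raises the medians of A549 and H1975. Members were chosen by their HCC827 level, and a gene with no counts in another line enters its median there as 0. The A549 median of 0.0 for lung lineage genes includes SFTPA1, SFTPA2, SFTPB and HOPX, each at 0.0, and is no measure of an unchanged response.

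The genes past 2-fold in HCC827 were set beside their folds in the other lines. Of the 1275 genes higher in HCC827, 526 (41.3%) were also at least 2-fold higher in A549 and 346 (27.1%) in H1975, while 338 (26.5%) and 221 (17.3%) were at least 2-fold lower there. Of the 2067 genes lower in HCC827, 1161 (56.2%) were lower in A549 and 738 (35.7%) in H1975, and 188 (9.1%) and 111 (5.37%) were higher. The share of all genes described that passed 2-fold in A549 or H1975 is not given. These percentages therefore do not show whether the overlap exceeds that share. The lines share no control library. Whether a gene's fold in HCC827 differed from the mean fold of the other lines was tested with an interaction term in edgeR over 20344 genes. It assumes that HCC827 varies like A549 and H1975, which leave 1 residual degree of freedom, and at an adjusted p under 0.05 it called 18 genes (0.0885%) as higher in HCC827 and 35 (0.172%) as lower. Of these 53 genes 34 had enough counts in HCC827 to be described here. None of the 53 was called when library totals were the only scaling or when no filter on low counts was used, so each call below depends on those choices.

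AKR1C1 and SLC7A11, both NRF2-linked, were higher with AL-X in HCC827 and lower in A549. AKR1C1 had 2546 counts with AL-X and 121 with DMSO in HCC827, 28097 and 129579 in A549 and 48 and 209 in H1975. Its log2 fold differed between HCC827 and the mean of the other lines by 6.21 (SE 1.28, edgeR adjusted p = 9.86e-04). SLC7A11 had 47137 counts with AL-X and 4846 with DMSO in HCC827, 5480 and 58263 in A549 and 2798 and 3105 in H1975, a difference of 4.72 (SE 1.23, adjusted p = 0.0462). Both genes had fewer counts in the DMSO library of HCC827 than in that of A549. The DMSO library of H1975 also had fewer, and the log2 folds there were -1.78 for AKR1C1 and 0.16 for SLC7A11. NLRP2 had 3971 counts with AL-X and 23 with DMSO in HCC827, 3546 and 8288 in A549 and 59 and 33 in H1975 (difference 7.32, SE 1.43, adjusted p = 2.78e-04). ANGPTL4 had 22570 counts with AL-X and 389 with DMSO in HCC827, 1224 and 733 in A549 and 4339 and 4576 in H1975 (difference 5.19, SE 1.21, adjusted p = 0.00995). HMOX1 was higher in every line, with log2 folds of 6.99 in HCC827, 3.92 in A549 and 3.52 in H1975. Its difference was not called (edgeR adjusted p = 0.367).

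Several chemokine and prostaglandin genes had a lower fold in HCC827 than in the other lines. CXCL1 was lower with AL-X in all 3 lines, with log2 folds of -9.07 in HCC827, -2.83 in A549 and -3.49 in H1975 (difference -6.14, SE 1.50, edgeR adjusted p = 0.0195). CXCL8 had -4.51 in HCC827, 1.83 in A549 and -0.24 in H1975 (difference -5.31, adjusted p = 0.0396), and CXCL5 -5.57 in HCC827, 0.23 in A549 and -1.16 in H1975 (difference -5.12, adjusted p = 0.00972). PTGS2 had -4.93 in HCC827, 0.021 in A549 and 4.10 in H1975 (difference -7.00, adjusted p = 0.00152), and HPGD -5.02 in HCC827, -0.39 in A549 and -0.15 in H1975 (difference -4.76, adjusted p = 0.0296). The ligand gene EREG was lower in HCC827 (-2.80) and higher in the others (2.59 in A549 and 1.37 in H1975; difference -4.78, adjusted p = 0.0195). CCL20 was not called (adjusted p = 0.620), with log2 folds of -8.16 in HCC827, -0.78 in A549 and -6.46 in H1975.

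Of the 18 AP-1 and immediate-early genes 3 had a called difference between lines, EGR1, FOSB and FOS. EGR1 was nearly level in HCC827, with 5037 counts with AL-X and 5737 with DMSO, but had 441774 and 48 in A549 and 179935 and 4038 in H1975 (difference -9.78, SE 1.76, edgeR adjusted p = 5.28e-05). FOSB had 1583 counts with AL-X and 195 with DMSO in HCC827, 365191 and 6 in A549 and 12968 and 37 in H1975 (difference -9.17, adjusted p = 5.96e-05). FOS had 2238 counts with AL-X and 711 with DMSO in HCC827, 296981 and 616 in A549 and 95318 and 457 in H1975 (difference -7.00, adjusted p = 4.95e-04). Without the A549 pair, which leaves no test, the log2 fold in HCC827 minus that in H1975 was -5.73 for EGR1 and -5.43 for FOSB. The feedback inhibitors SOCS3 and SOCS1 differed the same way, SOCS3 with log2 folds of -3.23 in HCC827, 5.58 in A549 and 3.10 in H1975 (adjusted p = 2.89e-05) and SOCS1 with 2.16 in HCC827, 7.88 in A549 and 6.73 in H1975 (adjusted p = 0.00929). SGK1, a kinase related to AKT, had -0.68 in HCC827, 7.29 in A549 and 5.44 in H1975 (adjusted p = 1.28e-04).

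Of 22 mitochondrial tRNA genes 5 had enough counts, and 3 of these had a called difference, with more counts kept in HCC827. MT-TC (edgeR adjusted p = 0.19) and MT-TM (edgeR adjusted p = 0.0613) were not called. MT-TL1 had 691 counts with AL-X and 5187 with DMSO in HCC827, 4 and 10541 in A549 and 1 and 2995 in H1975 (difference 8.03, SE 1.50, edgeR adjusted p = 1.23e-04). MT-TY had 76 counts with AL-X and 9560 with DMSO in HCC827, and its counts with AL-X were 0 in both other lines, as were those of MT-TS1; the fitted differences of these 2 genes (8.38 and 8.49) depend on the prior count and are no measured size. Between log2 folds with a prior count of 2, the difference was 4.17 for MT-TY and 4.49 for MT-TS1 without the A549 pair, and 4.73 for MT-TY and 4.67 for MT-TS1 without the H1975 pair. None of the 13 mitochondrial mRNAs was called, although each had a smaller fold in HCC827 than in A549 or H1975. MT-ND1, for example, had log2 folds of -4.33 in HCC827, -9.65 in A549 and -8.29 in H1975 (adjusted p = 0.0908).

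**Figure D5:**
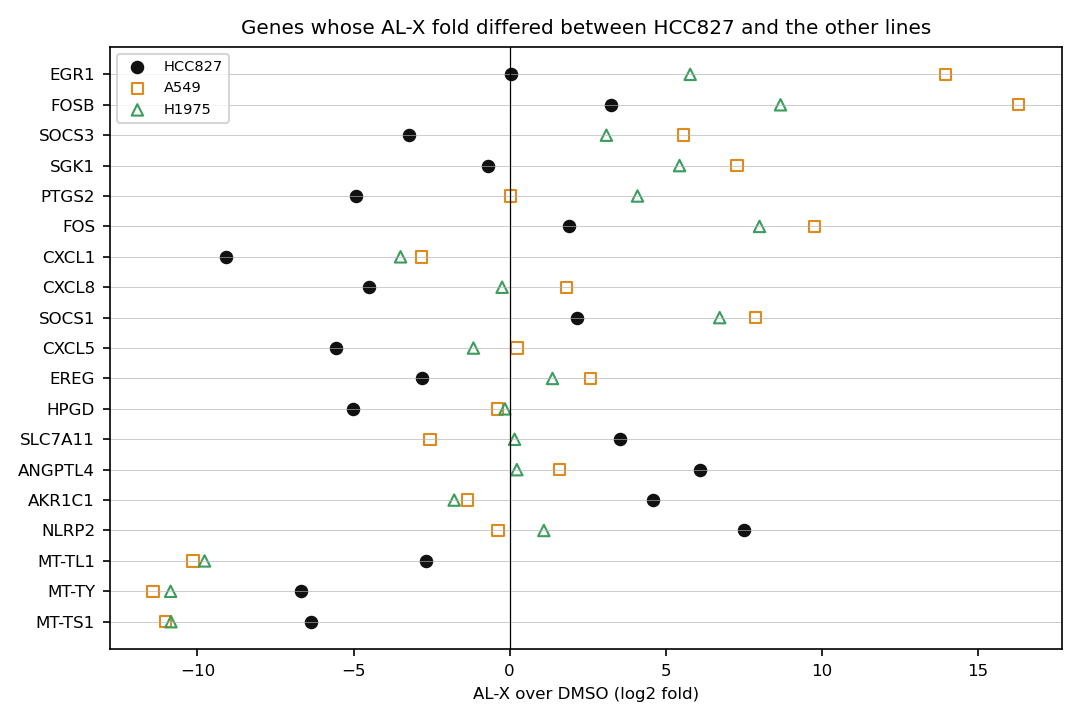
Log2 fold of AL-X over DMSO (x axis) in HCC827 (filled circles), A549 (open squares) and H1975 (open triangles) for the 19 named genes whose fold differed between HCC827 and the mean of the other lines at an edgeR adjusted p under 0.05. EGR1 lies at 0.052 in HCC827, 13.96 in A549 and 5.79 in H1975. NLRP2 lies at 7.52 in HCC827, -0.37 in A549 and 1.10 in H1975.

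The limits of the description follow its thresholds. Just inside the level of 5 CPM lay RAB3A, with 4.49 CPM with AL-X and 5.01 CPM with DMSO, and just outside it NEURL3, whose AL-X level of 4.9995 CPM was its higher one, against 0.875 CPM with DMSO. Just inside the 2-fold mark lay COLGALT1 at 1.0003 and SMIM30 at -1.0005, and just outside COG6 at 0.99995 and BCL2L2 at -0.99989.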

How the data were processed

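RNA of HCC827, A549 and H1975 cells treated for 48 h with AL-X or DMSO was sequenced after Trizol extraction and mRNA library preparation, per the labels' protocols. Of tools and builds, bcl2fastq 2.20 and GRCh38 are named in the submitters' processing notes. Which aligner, counter, annotation release and strand setting were used, and whether molecular identifiers were, is not given in the sources used here. As deposited by the authors, the values are raw whole-number counts for 6 libraries, 1 per line and treatment. No label states that a library pools several cultures.

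Counts were scaled with TMM factors from all 6 libraries after filterByExpr on the treatment (edgeR 4.0.16, R 4.3.3). The log2 fold of scaled CPM used a prior count of 2, and 40 genes that the filter drops were kept in the description if 1 HCC827 library reached 5 CPM. A gene counts as higher or lower at 2-fold or more. Exact binomial 95% intervals hold counting error alone, as PCR copies of a molecule may be counted more than once, and a count of 0 was replaced by a floor of 3 in that library for bounds. The difference between lines was tested by edgeR's quasi-likelihood test with the line as a block and Benjamini-Hochberg adjustment; an SE is the difference divided by the square root of its F value. The folds, the counting interval and the test of line differences were tried on simulated counts.

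Positions are from GENCODE release 29, matched for 58453 genes, and promoter windows from RefSeq, build GRCh38.p14. Without a stated strand, overlapping, antisense and readthrough genes cannot be told apart. The 56 gene lists and other choices were made with earlier results of these data known. The rule named up to 15 genes in each direction with a symbol and at least 10 CPM, up to 4 at each end of a list, and a set of fixed genes. ASNS, BUB1B, CCNB2, CD274, CXCL2, FASN, GCLC, ICAM1, MAFG, NAPSA, NFKB1, NFKBIB, NKX2-1, PLK1, SLC7A5, TFRC, TNIP2, TRIB3, ULBP3, VIM, ENSG00000285991 and ENSG00000229224 lie outside it and were chosen after their values were seen. A few genes are not reported here. Alternatives changed the scaling, the prior count, the minimum level, the filter and the tool (DESeq2 1.42.0, limma 3.58.1).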

Additional observations from a re-analysis of the deposited data

Results flagged for a closer look

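The genes listed here are those whose AL-X fold differed between HCC827 and the mean of A549 and H1975 by the interaction test in edgeR (adjusted p under 0.05, 1 residual degree of freedom), among the genes named by the fixed rule. All values are log2 fold in HCC827 minus that mean. None was called with library totals as the only scaling or with no filter on low counts.

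Higher in HCC827 were MT-TS1 at 8.49, MT-TY at 8.38 and MT-TL1 at 8.03, which had 0 to 4 counts with AL-X in the other lines. NLRP2 differed by 7.32, AKR1C1 by 6.21, ANGPTL4 by 5.19 and SLC7A11 by 4.72.

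Lower in HCC827 were the immediate-early genes EGR1 at -9.78, FOSB at -9.17 and FOS at -7.00, with -5.73 for EGR1 and -5.43 for FOSB without the A549 pair. The cytokine feedback genes SOCS3 and SOCS1 differed by -7.58 and -5.15, and the kinase gene SGK1 by -7.05. PTGS2 differed by -7.00 and HPGD by -4.76. Among chemokines CXCL1 differed by -6.14, CXCL8 by -5.31 and CXCL5 by -5.12. The EGFR ligand gene EREG differed by -4.78. For EGR1, FOSB, FOS, SOCS1 and SGK1 the A549 and H1975 libraries were both higher with AL-X, and in HCC827 FOSB, FOS and SOCS1 were higher by less.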

How the results depend on the processing

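No paired analysis was possible because each line and treatment had 1 library, and the line is already the block of the interaction test. The counts of 1275 genes higher and 2067 lower stayed within 1.5 times under every scaling, both prior counts and the 6-library filter. With the counting interval wholly past 2-fold, and with the 6-library filter, both chosen after seeing the data, they were 1110 and 1866, and 1270 and 2041. The minimum level moved them: 1949 genes were higher at 1 CPM, 845 were higher and 1159 lower at 20 CPM, and 5376 were higher and 7290 lower with no minimum. Fewer or more genes enter at each level by construction. Library totals as the only scaling took 13 of 445 named genes out of their call, among them HSPA8 (-0.92), HSPB1 (-0.93), ERBB3 (-0.95), CTSH (-0.94) and RPL3 (-0.91), and brought in 7.

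The difference between lines was less stable. It called 0 genes higher and 0 lower with library totals (1488 at an unadjusted p under 0.05, against 1667) and 0 and 0 with all genes entered (1588). Requiring 1 CPM in 3 libraries gave 22 higher and 23 lower, DESeq2 137 and 107, and limma-voom 74 and 74. Of the 53 genes, 50 were shared with DESeq2 size factors, 39 with that filter, 51 with DESeq2 and 43 with limma-voom. Without the A549 pair 4 of 19 named differences moved by more than 1.5 times, as differences between log2 folds with a prior count of 2: EGR1 to -5.73, FOSB to -5.43, MT-TY to 4.17 and MT-TS1 to 4.49, and without the H1975 pair 2 did, MT-TY to 4.73 and MT-TS1 to 4.67. All 19 kept their sign, and neither run leaves a residual degree of freedom for a test. The cause was not tested. Lists with no member above 20 CPM have no median there.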
